A study of Mus musculus with 9 samples.

Results

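The genes studied here were 10 BMP and TGF-beta signalling genes that endothelial cells (ECs) use: the receptors Eng, Acvrl1, Bmpr2 and Tgfbr2, the ligands Bmp4 and Bmp6, the inhibitory Smads Smad6 and Smad7, and the target genes Id1 and Id3. They were chosen by symbol, with earlier results of these data known, and each matched 1 row of a count table of 46078 genes. The table held 9 bulk RNA-seq libraries of bone marrow (BM) ECs from B6 mice labelled wild type, with no treatment named. The cells were sorted as CD45-Ter119-CD31+ and divided by Sca-1, the surface antigen encoded by Ly6a, into Sca-1+ (4 libraries, numbered 7, 13, 15 and 19) and Sca-1- (5 libraries, numbered 8, 10, 14, 16 and 22). The study called these fractions Sca-1high ECs, which it placed on arterioles, and Sca-1low ECs, which it placed on sinusoids. The comparison asks how far the BMP and TGF-beta genes differ between the fractions. The age and sex of the mice, and whether any library pooled several mice, are not given in the sources used here. Libraries 15 and 16, of opposite fractions, share a number in their titles that the other 7 do not carry. The titles of libraries 13, 14 and 22 share another tag, and that of library 10 has a similar one, which the labels do not explain.

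BMPs and TGF-betas are secreted dimers that bring together type I and type II receptor kinases, which then phosphorylate Smad transcription factors. In ECs the type I receptor Acvrl1 (ALK1) and the type II receptor Bmpr2 bind circulating BMP ligands with the co-receptor endoglin (Eng), and the activated Smads raise the Id genes and the inhibitory Smads, which feed back on the pathway. Loss of Eng or Acvrl1 causes hereditary haemorrhagic telangiectasia, a disease of malformed vessels, and loss of Bmpr2 causes pulmonary arterial hypertension.

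Total counts lay between 23058385 and 24657204 in the Sca-1+ libraries and between 21581653 and 25959818 in the Sca-1- libraries. Levels are given as CPM, the read count of a gene relative to its library's size after TMM scaling, and 3 counts, the limit that a count of 0 allows, came to 0.0996 to 0.209 CPM (counting error only). TMM scaling assumes that most genes do not differ between libraries. Both fractions are labelled endothelial, but the summed CPM of 25 general endothelial genes was 19250 to 23040 in the Sca-1+ and 1709 to 4735 in the Sca-1- libraries. By mean over the Sca-1- libraries Esam (1031 CPM) and Pecam1 (836 CPM) were the largest parts of the Sca-1- sum, followed by Plvap (214 CPM). Cdh5 was at 7.14 CPM there. Library 10 had the highest of the Sca-1- sums but the lowest mean log2 CPM over the 25 genes, 3.62 against 4.55 to 5.08 in the other 4 and 8.84 to 9.07 in the Sca-1+ libraries. The sum over 16 megakaryocyte genes went the other way, from 27320 to 115400 in the Sca-1- and from 45.2 to 93.4 in the Sca-1+ libraries, and all 16 were lower in Sca-1+ (endothelial genes: 22 of 25 higher). Leukocyte genes (10 of 12 lower in Sca-1+) summed to 2185 to 4389 and 247 to 406 CPM, and erythroid genes (9 of 12 lower) to 752 to 2473 and 125 to 269 CPM. Stromal and osteoblast genes (3 of 10 lower, Lepr higher) summed to 3045 to 42570 CPM in the Sca-1- and 258 to 1040 in the Sca-1+ libraries, and smooth muscle and pericyte genes (7 of 10 higher in Sca-1+) to 20.3 to 95.4 and 683 to 1643 CPM. No gene of these lists was at or under the limit in every library. All 9 arterial genes were higher in Sca-1+ on TMM scaling, 1 of them being Ly6a, the sort gene, and with libraries scaled to the 25 endothelial genes 4 were higher, Ly6a among them, and 5 not called. Of 10 sinusoidal genes 9 were higher and Lyve1 was lower in Sca-1+ on TMM scaling, and on endothelial scaling 1 was higher, 2 were lower and 7 not called. Ly6a, which defined the sort, was at 1133 ± 187 CPM (SD, n = 4) in Sca-1+ and 0.678 ± 0.524 CPM (SD, n = 5) in Sca-1- libraries. The other sort gene, Pecam1 (CD31), was at 1399 ± 261 and 836 ± 613 CPM, and its fractions overlapped. It was highest among the Sca-1- libraries in 8 and 10, at 1266 and 1701 CPM against 334 to 461 CPM in the other 3, and the same 2 libraries had the highest megakaryocyte sums. Because the samples are bulk, fewer ECs in a library and less RNA of a gene per EC cannot be told apart. Each comparison below is therefore given on TMM scaling and also after scaling all libraries to the same mean level of the 25 general endothelial genes, none of which is among the 10.

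On TMM scaling, 9 of the 10 genes were higher in Sca-1+ ECs (edgeR quasi-likelihood test, adjusted p under 0.05), where 23.3% of the 15937 genes tested were called higher. No member was called lower, at an adjusted or an unadjusted p under 0.05 or by DESeq2 or limma voom, where 21.4% of all genes were called lower. In 9 of the 10 every Sca-1+ library lay above every Sca-1- library, as it did for 24.8% of all genes. The median log2 fold change was 3.70 over the 10 and 0.07 over all genes tested. Because the 10 were chosen with earlier results of these data known, these contrasts with all genes are no test of the set. Bmp4 alone was not called.

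**Figure D1:**
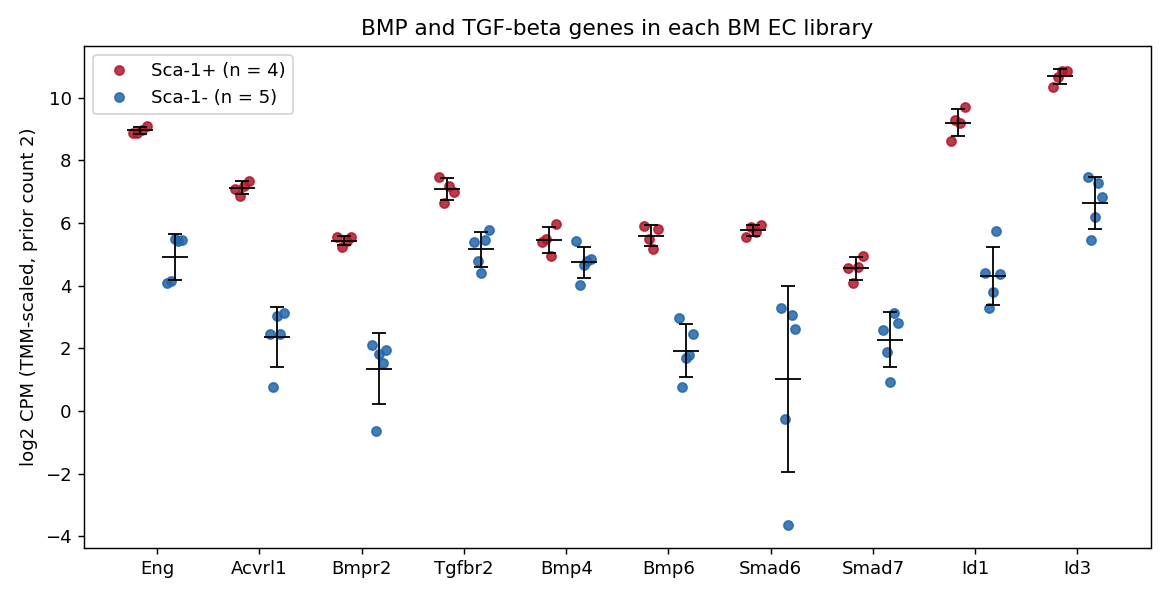
Levels of the 10 genes in each library, as log2 CPM on TMM-scaled library sizes with a prior count of 2 (y axis), for 4 Sca-1+ (red) and 5 Sca-1- (blue) libraries; black bars are the mean and SD. The fractions are apart for every gene except Bmp4, and the lowest Smad6 point, at -3.63, is Sca-1- library 14 with 0 counts.

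Eng (ENSMUSG00000026814, chromosome 2, 32646595 to 32682669, GRCm38) encodes endoglin, a transmembrane co-receptor that presents BMP9 and BMP10 to ALK1. The promoter of Eng is shown because Eng had the tightest Sca-1+ values of the 10 genes relative to its mean. The bases run up to the one before the annotated start (RefSeq, GRCm38.p6, chr2:32646345-32646594, plus strand), and capitals mark GTCT on either strand, the 4-base core that Smad3 and Smad4 bind.
Eng promoter: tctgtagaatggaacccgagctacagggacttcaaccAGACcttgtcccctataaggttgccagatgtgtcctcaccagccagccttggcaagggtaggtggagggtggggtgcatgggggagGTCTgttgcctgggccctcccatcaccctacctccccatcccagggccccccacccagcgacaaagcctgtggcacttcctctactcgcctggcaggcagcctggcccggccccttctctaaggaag
The 2 matches began 213 and 127 bases before the start, and 88.0% of 32851 promoter windows of 300 bases hold at least 1.

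Eng stood at 472, 473, 496 and 551 CPM in Sca-1+ libraries 7, 13, 15 and 19. In Sca-1- libraries 8, 10, 14, 16 and 22 it stood at 16.9, 17.7, 44.4, 42.8 and 43.9 CPM. Every Sca-1+ library was above 10 times the highest of the others, and libraries 8 and 10 held less than the remaining 3. The difference was 15.02-fold (log2 fold change 3.91, SE 0.36, adjusted p = 4.06e-05). A short stretch of Eng exon (61 of 4048 bases) overlaps Fpgs on the other strand, and whether counting used strand is not given in the sources used here. Fpgs was at 18.3 ± 5.50 CPM (SD, n = 4) in Sca-1+ and 30.7 ± 15.1 CPM (SD, n = 5) in Sca-1- libraries.

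Acvrl1 (ENSMUSG00000000530, chromosome 15, 101128522 to 101145336) encodes ALK1, the type I receptor of BMP9 and BMP10 in ECs. It stood at 137, 116, 146 and 162 CPM in Sca-1+ libraries 7, 13, 15 and 19. It was at 5.47, 1.61, 8.15, 5.38 and 8.75 CPM in Sca-1- libraries 8, 10, 14, 16 and 22. The fractions did not overlap, and library 10 was the lowest of all 9. Acvrl1 was 23.8-fold higher in Sca-1+ ECs (log2 fold change 4.57, SE 0.43, adjusted p = 4.24e-05), the largest fold among the receptors.

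Bmpr2 (ENSMUSG00000067336, chromosome 1, 59763400 to 59879014), the type II BMP receptor, was at 46.8, 37.4, 43.2 and 46.7 CPM in Sca-1+ libraries 7, 13, 15 and 19. In Sca-1- libraries 8, 10, 14, 16 and 22 it was at 4.21, 0.559, 3.44, 2.82 and 3.79 CPM. The value of library 10 rests on 8 counts and stands apart from the other 4. The difference was 14.6-fold (log2 fold change 3.87, SE 0.46, adjusted p = 0.000139).

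Tgfbr2 (ENSMUSG00000032440, chromosome 9, 116084293 to 116175360) is the type II receptor that binds TGF-beta itself. It stood at 178, 100.3, 145 and 127 CPM in Sca-1+ libraries 7, 13, 15 and 19, and at 41.9, 27.4, 21.1, 43.7 and 54.6 CPM in Sca-1- libraries 8, 10, 14, 16 and 22. The fractions did not overlap, but the gap was narrower than for the 3 receptors above. Tgfbr2 was 3.64-fold higher in Sca-1+ ECs (log2 fold change 1.86, SE 0.30, adjusted p = 0.000715).

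The pair of ligands differed from each other. Bmp6 (ENSMUSG00000039004, chromosome 13, 38345107 to 38500302), an EC-derived BMP known for driving hepcidin in the liver, stood at 60.2, 44.8, 36.0 and 55.8 CPM in Sca-1+ libraries 7, 13, 15 and 19. It was at 7.81, 1.61, 3.14, 3.35 and 5.38 CPM in Sca-1- libraries 8, 10, 14, 16 and 22. The fractions were well apart, and the difference was 11.5-fold (log2 fold change 3.53, SE 0.42, adjusted p = 0.000143). Exons of Bmp6 overlap Txndc5 on the other strand over 224 of 3900 bases, and Txndc5 was at 85.3 ± 38.6 CPM (SD, n = 4) in Sca-1+ and 102.9 ± 24.4 CPM (SD, n = 5) in Sca-1- libraries. Acvrl1 and Bmp4 overlap Gm16031 (127 bases) and Gm15217 (89 bases) in the same way, and Gm15217 reached 0.374 CPM and Gm16031 0.0772 CPM at most.

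Bmp4 (ENSMUSG00000021835, chromosome 14, 46383520 to 46390669) is a BMP made by ECs and by stromal cells. It was at 41.8, 45.1, 31.0 and 62.3 CPM in Sca-1+ libraries 7, 13, 15 and 19, and at 42.7, 16.3, 25.2, 27.4 and 28.6 CPM in Sca-1- libraries 8, 10, 14, 16 and 22. The highest Sca-1- library, 8, lay above 2 of the Sca-1+ libraries. The log2 fold change of 0.68 (SE 0.30) did not pass the test (adjusted p = 0.0839). Without library 8 it was 0.81 (adjusted p = 0.0301), without libraries 8 and 10 0.73 (adjusted p = 0.0394), and with scaling by library size alone 1.06 (adjusted p = 0.0398). Other settings lowered it, to 0.48 without library 10 (adjusted p = 0.192) and 0.49 without library 19 (adjusted p = 0.235). In the 6 libraries with consecutive numbers (7 and 8, 13 and 14, 15 and 16) it was 0.33 with the pair as a block (adjusted p = 0.469). Without the block it was 0.31 (adjusted p = 0.468). Library 8 also had the highest stromal and osteoblast sum (42570 CPM, against 3045 to 19340 CPM in the other Sca-1- libraries), and the part of this in the result was not tested. By mean over the Sca-1- libraries Col1a1 (12160.5 CPM) and Col1a2 (5593.75 CPM) were the largest parts of that sum.

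Smad6 and Smad7 are induced by the pathway and hold it back, Smad6 mainly on the BMP side and Smad7 on both sides. The promoter of Smad6 is shown because this gene had the widest Sca-1- values (minus strand, RefSeq, GRCm38.p6, chr9:64022056-64022309, up to 4 bases past the start), with GTCT on either strand in capitals.
Smad6 promoter: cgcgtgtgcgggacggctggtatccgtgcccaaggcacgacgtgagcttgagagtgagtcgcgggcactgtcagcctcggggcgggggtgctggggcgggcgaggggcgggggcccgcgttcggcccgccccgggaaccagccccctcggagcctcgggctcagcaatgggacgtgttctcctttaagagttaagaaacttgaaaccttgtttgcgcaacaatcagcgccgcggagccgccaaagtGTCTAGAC
The capitals form 1 palindrome of GTCT and its reverse complement that spans the annotated start. It is held by 0.213% of the 32851 promoter windows and was singled out after the sequence was seen. The longer BMP element, GGCGCC followed 5 bases later by GTCT on either strand, was in 0.0731% of the windows and in none of the 7 member promoters searched (all but Acvrl1, Id1 and Smad7), and GGCGCC alone in 11.9% of the windows and in Bmpr2 of the 7. GTCT was in 6 of the 7, all but Bmpr2. These are matches of letters, not sites.

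Smad6 (ENSMUSG00000036867, chromosome 9, 63953076 to 64022059) was at 47.2, 58.3, 51.8 and 60.7 CPM in Sca-1+ libraries 7, 13, 15 and 19. In Sca-1- libraries 8, 10, 16 and 22 it was at 9.61, 0.768, 8.23 and 6.11 CPM, and library 14 had 0 counts, which allows up to 0.127 CPM. Sca-1+ libraries were close together, while the Sca-1- libraries fell into values under 1 CPM (10 and 14) and values over 6 CPM. The fold of 10.99 (log2 fold change 3.46, SE 0.98, adjusted p = 0.0154) was the least certain of the 9. In the 6 libraries with consecutive numbers (7 and 8, 13 and 14, 15 and 16) it was not called, at 3.86 with the pair as a block (adjusted p = 0.123) and 3.14 without it (adjusted p = 0.104).

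Smad7 (ENSMUSG00000025880, chromosome 18) was at 23.8, 16.9, 24.4 and 30.8 CPM in Sca-1+ libraries 7, 13, 15 and 19, and at 5.95, 3.63, 1.82, 8.77 and 6.88 CPM in Sca-1- libraries 8, 10, 14, 16 and 22. The lowest Sca-1+ library stood above the highest Sca-1- library. The difference was 4.42-fold (log2 fold change 2.14, SE 0.43, adjusted p = 0.00238).

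Id1 (ENSMUSG00000042745, chromosome 2, 152736251 to 152737410) and Id3 (ENSMUSG00000007872, chromosome 4, 136143497 to 136145755) encode inhibitors of basic helix-loop-helix factors and are the standard readout of BMP signalling in ECs. Id1 was at 396, 623, 588 and 825 CPM in Sca-1+ libraries 7, 13, 15 and 19, and at 20.9, 9.70, 13.7, 53.7 and 20.5 CPM in Sca-1- libraries 8, 10, 14, 16 and 22. Library 16 was the highest Sca-1- library by a wide margin and still far below the Sca-1+ libraries. Id1 had the largest fold of the 10 genes, 25.6 (log2 fold change 4.68, SE 0.52, adjusted p = 9.36e-05).

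Id3 stood at 1289.9, 1613, 1842 and 1864 CPM in Sca-1+ libraries 7, 13, 15 and 19. It was at 178, 44.0, 72.5, 156 and 114 CPM in Sca-1- libraries 8, 10, 14, 16 and 22. Again no library of one fraction entered the range of the other, and library 10 was the lowest. The difference was 14.6-fold (log2 fold change 3.87, SE 0.42, adjusted p = 8.69e-05).

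The order of the 10 genes was compared per kilobase of exon (RPKM, from CPM and GENCODE M21 exon lengths). In Sca-1+ libraries Id3 was at 923 ± 149 RPKM, Id1 at 524 ± 152 and Eng at 123 ± 9.13 (SD, n = 4), each above the next in every library. Acvrl1, at 32.9 ± 4.55 RPKM, followed, and the ranges of Acvrl1, Bmp4, Smad6, Tgfbr2 and Bmp6 overlapped from each to the next, down to 12.6 ± 2.80 RPKM for Bmp6. Smad7 (5.30 ± 1.26 RPKM) and Bmpr2 (2.42 ± 0.245 RPKM) were lowest and apart. The place of Bmpr2 depends on its annotated exon length, 17983 bases, the longest of the 10. By mean CPM in Sca-1+ libraries it was above Smad7 (43.5 against 24.0). In Sca-1- libraries Id3 (63.0 ± 31.2 RPKM) and Id1 (20.4 ± 15.02 RPKM, SD, n = 5) were again highest by mean and Bmpr2 lowest (0.165 ± 0.0798 RPKM). There Bmp4 was the third by mean, at 12.5 ± 4.22 RPKM, against the fifth in Sca-1+ ECs, and Tgfbr2 (4.61 ± 1.64 RPKM) stood above Acvrl1 (1.38 ± 0.664 RPKM). All neighbours in that order overlapped, except Bmp6 and Bmpr2.

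With the libraries scaled to the 25 general endothelial genes, Tgfbr2, Smad7 and Bmp4 were lower in Sca-1+ ECs and the other 7 genes were not called. Of the 25 genes themselves 9 were higher, 4 lower and 12 not called on this scale. Esam (-4.59), Tspan18 (-4.17) and Pecam1 (-4.01) were lowest, and the 22 called higher on TMM scaling lay from -1.17 (Tie1) to 1.44 (Flt1). The 3 lower members thus lie inside the full spread of the 25. The median log2 fold change over the 10 was -0.54, against -4.32 over all genes tested, and this scaling shifted the median of all genes by -4.39. No member was higher, at an adjusted or an unadjusted p under 0.05, and 3 were lower in Sca-1+ ECs (edgeR, adjusted p under 0.05), where 1.39% of all genes were called higher and 88.5% lower. Eng (-0.34, SE 0.29, adjusted p = 0.282), Acvrl1 (0.38, SE 0.33, adjusted p = 0.293), Bmpr2 (-0.33, SE 0.43, adjusted p = 0.470), Id3 (-0.38, SE 0.38, adjusted p = 0.347) and Id1 (0.49, SE 0.39, adjusted p = 0.249) were not called. The endothelial-scaled log2 fold change was -0.75 for Bmp6 (SE 0.43, adjusted p = 0.122) and -0.70 for Smad6 (SE 0.96, adjusted p = 0.493). For these 7 genes a difference was not detectable on this scale, which does not show that they were equal.

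Tgfbr2 was 5.60-fold lower in Sca-1+ ECs on that scale (log2 fold change -2.49, SE 0.34, adjusted p = 3.09e-05), the opposite direction to TMM scaling. Smad7 was 4.45-fold lower (-2.15, SE 0.47, adjusted p = 0.00105), also reversed. Bmp4 was 12.4-fold lower (-3.63, SE 0.39, adjusted p = 5.44e-06). These 3 calls were made with each library left out in turn and without libraries 8 and 10 together. Without those 2 libraries Eng was also called lower (-0.50, adjusted p = 0.0306), and without library 16 Id1 was called higher (0.85, adjusted p = 0.0385).

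Within a library, a gene can be set against the average log2 CPM of those 25 genes. This shows the endothelial scaling above library by library and is not a separate result. On this log2 scale Tgfbr2 lay at -2.19 to -1.60 in Sca-1+ and at -0.32 to 1.16 in Sca-1- libraries. Bmp4 lay at -4.08 to -2.89 in Sca-1+ and at -0.24 to 0.87 in Sca-1- libraries. Smad7 ranged from -4.76 to -3.90 in Sca-1+ and from -3.80 to -1.73 in Sca-1- libraries, library 14 being the lowest. The fractions overlapped for the other 7 genes, with Eng at -0.19 to 0.25 in Sca-1+ and -0.47 to 0.75 in Sca-1- libraries. The megakaryocyte, leukocyte, and stromal and osteoblast sums were higher in the Sca-1- libraries, as given above (3 of the 10 stromal and osteoblast genes were called), and their part in these 3 results was not tested.

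**Figure D2:**
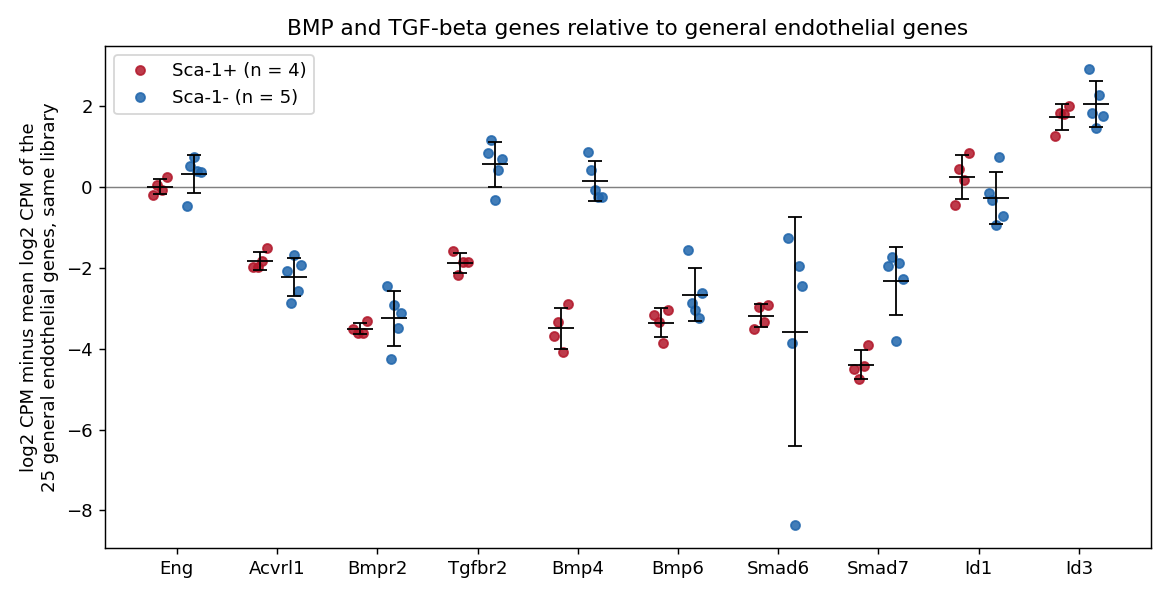
Log2 CPM of each gene minus the average of the 25 endothelial genes in the same library, also in log2 CPM (y axis), for 4 Sca-1+ (red) and 5 Sca-1- (blue) libraries; black bars are the mean and SD. Tgfbr2, Bmp4 and Smad7 are lower in every Sca-1+ library than in every Sca-1- library, and the fractions overlap for the other 7 genes.

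Ratios of genes of like role within a library do not depend on scaling. They can still depend on the mix of cells in a library, and the part of stromal or other RNA in them was not tested. They use the same counts as the fold changes above and are not separate results. In all, 3 ratios were compared by an exact two-sided permutation test over 126 splits, whose smallest p is 0.0079. The log2 ratio of Bmp6 to Bmp4 was 0.14 ± 0.30 (SD, n = 4) in Sca-1+ and -2.82 ± 0.39 (SD, n = 5) in Sca-1- libraries. The difference of 2.96 had an exact p of 0.00794 (0.0238 after Benjamini-Hochberg adjustment over the 3 ratios), with all 4 Sca-1+ libraries (-0.16 to 0.52) above all 5 others (-3.28 to -2.40). Bmp6 and Bmp4 were thus at near equal CPM in Sca-1+ ECs, and Bmp4 exceeded Bmp6 in every Sca-1- library.

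The log2 ratio of Smad7 to Smad6 was -1.21 ± 0.39 (SD, n = 4) in Sca-1+ libraries, and -0.69, 2.13, 0.09 and 0.17 in Sca-1- libraries 8, 10, 16 and 22. In library 14 Smad6 had 0 counts, so that its value is set by the prior count and is no measured ratio. Without library 14 the difference was -1.63 (exact p = 0.0286, the smallest that 4 libraries against 4 allow). With it the difference was -2.46 (exact p = 0.0238, adjusted 0.0317), or -2.87 with a prior count of 0.5. With any 1 Sca-1+ library left out the exact p was 0.0893 to 0.125. The log2 ratio of Id1 to Id3 was -1.47 ± 0.25 in Sca-1+ and -2.33 ± 0.56 in Sca-1- libraries, and library 16, at -1.54, lay inside the Sca-1+ range of -1.70 to -1.17. Its difference of 0.86 (exact p = 0.0317, adjusted 0.0317) rose to 1.06 without that library (exact p = 0.0286, again the smallest possible). With any of the other 8 left out the exact p was 0.0714 to 0.107.

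**Figure D3:**
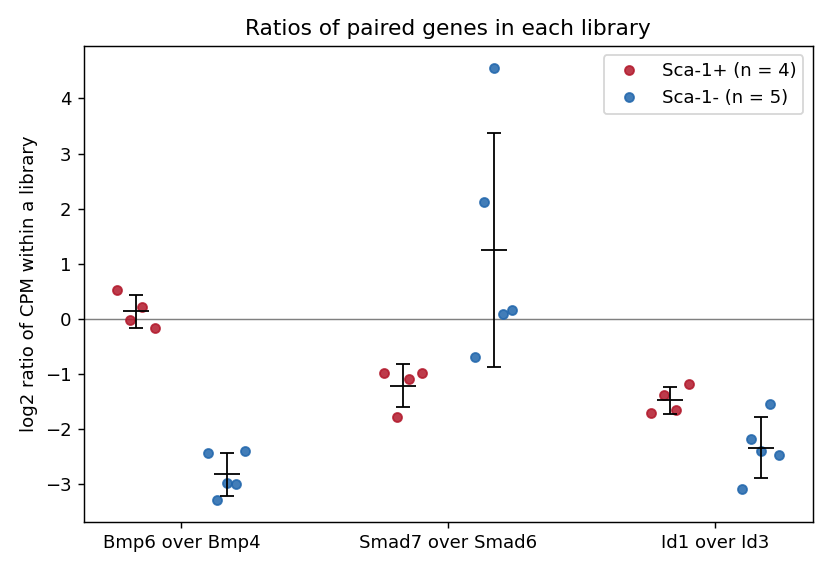
Log2 ratio of CPM of 2 genes within each library (y axis) for Bmp6 over Bmp4, Smad7 over Smad6 and Id1 over Id3, in 4 Sca-1+ (red) and 5 Sca-1- (blue) libraries; black bars are the mean and SD. The highest Smad7 over Smad6 point is library 14, where Smad6 had 0 counts and the prior count sets the value, and Bmp6 over Bmp4 has a gap, from -0.16 to 0.52 against -3.28 to -2.40.

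Among 9866 genes with an average log2 CPM of at least 3, those whose pattern over the 9 libraries was most like that of Eng were Hspa12b, Tspan12 and Cxcl16. Their root mean square differences from Eng, in log2 CPM centred on each gene's mean, were 0.238, 0.260 and 0.285. Both fractions enter this distance, so it reflects the size of the difference between them as well as the spread within each. On TMM scaling the log2 fold changes of Hspa12b, Tspan12 and Cxcl16 were 3.94, 4.15 and 3.99, against 3.91 for Eng. Of the other members, Acvrl1 was closest (0.579, rank 123), followed by Bmpr2 (0.682, rank 213), Id3 (0.685, rank 216), Id1 (0.756, rank 301) and Bmp6 (0.777, rank 325). Smad7 (1.17), Tgfbr2 (1.23), Bmp4 (1.77) and Smad6 (2.15) were farther away.

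Among 72 other genes of the pathway, 62 could be tested, 29 were higher and 5 lower in Sca-1+ ECs on TMM scaling, with a median log2 fold change of 1.39 (all genes: 23.3% higher, 21.4% lower, median 0.07). On endothelial scaling 51 of the 62 were lower and none was higher (edgeR, also 0 at an unadjusted p under 0.05), with a median of -3.01, where 88.5% of all genes were lower with a median of -4.32. The counts by role below are to be read against the same shares over all genes, from which no list was tested to differ. Targets moved most uniformly on TMM scaling, with 11 of 12 higher. Id4, a relative of Id1, rose most, from 6.49 ± 4.91 to 153 ± 19.2 CPM (log2 fold change 4.55, SE 0.60, adjusted p = 0.000229), followed by Hey1, a Notch and BMP target (4.20, SE 0.38, adjusted p = 3.73e-05). On endothelial scaling neither was called (0.39, adjusted p = 0.433, and -0.07, adjusted p = 0.878), while 8 of the 12 targets were lower.

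Of 8 tested receptors and co-receptors, 5 were higher on TMM scaling, led by the BMP co-receptor Rgmb (3.84, SE 0.48, adjusted p = 0.000187) and the activin type I receptor Acvr1b (2.95, SE 0.89, adjusted p = 0.0215). Acvr1b was not called without Sca-1+ library 19 (2.69, adjusted p = 0.0575), without Sca-1- libraries 8 and 10 (2.69, adjusted p = 0.0694), or in the 6 libraries with consecutive numbers, with the pair as a block (4.33, adjusted p = 0.0798) or without it (3.13, adjusted p = 0.107). On endothelial scaling neither was called, at -0.44 and -1.36, and 6 of the 8 were lower. Of 5 tested Smad transducers, 3 were higher on TMM scaling, with Smad5 at 1.37 (SE 0.28, adjusted p = 0.00262) and Smad1 at 1.32 (SE 0.21, adjusted p = 0.000721), both BMP-side Smads. All 5 were lower on endothelial scaling (-3.06 for Smad5 and -3.08 for Smad1). Of 11 intracellular and membrane inhibitors 5 were higher, among them Skil (2.67, SE 0.39, adjusted p = 0.000399) and Tgif1 (2.62, SE 0.29, adjusted p = 0.000101), co-repressors of Smads, and all 11 were lower on endothelial scaling.

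Ligands went in both directions, with 2 of 11 tested higher and 4 lower. Inhbb, an activin and inhibin subunit, rose from 1.05 ± 1.76 to 21.5 ± 8.06 CPM (4.31, SE 1.08, adjusted p = 0.00837) and Tgfb2 from 2.70 ± 1.43 to 22.1 ± 5.47 CPM (3.02, SE 0.47, adjusted p = 0.000577) on TMM scaling. Without library 16 the log2 fold change of Inhbb was 6.35, with 0 to 10 counts in the other 4 Sca-1- libraries, and in the 6 libraries without the block it was not called (3.90, adjusted p = 0.075). The endothelial-scaled log2 fold change was 0.23 for Inhbb (not called) and -1.18 for Tgfb2 (adjusted p = 0.0319). Bmp7, a BMP active in kidney and bone, had 0 counts in all 4 Sca-1+ libraries and 46 to 152 counts in the Sca-1- libraries, and its Sca-1- mean of 4.41 CPM makes Sca-1+ ECs at least 37.9-fold lower, taking 3 counts per library as the limit. Bmp3, a bone BMP, was at 1.82 to 58.2 CPM in Sca-1- and at 1 count in 3 of 4 Sca-1+ libraries, library 7 having 1.40 CPM (-6.07, SE 1.37, adjusted p = 0.00488). Without library 7 its log2 fold change was -9.30, a value that depends on the prior count. Tgfb1 and Bmp2, named after their values were seen, were the other lower ligands. Tgfb1 fell from 182 ± 78.8 to 31.4 ± 8.38 CPM (-2.54, SE 0.37, adjusted p = 0.000429), and Bmp2 from 142 ± 114 to 36.5 ± 14.1 CPM (-1.96, SE 0.55, adjusted p = 0.0151). These 4 were lower on both scalings, but endothelial scaling shifted the median of all genes by -4.39, so the second call adds no separate support. Gdf2 and Bmp10, which encode BMP9 and BMP10, the ligands of the Acvrl1 complex, had 0 counts in all 9 libraries.

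Extracellular regulators were mostly not called on TMM scaling, with 3 higher and 1 lower of 15, shares below those of all genes. The protease Htra1 (3.25, SE 0.45, adjusted p = 0.000297) and the follistatin-like Fstl1 (2.84, SE 0.49, adjusted p = 0.00104) were higher on TMM and lower on endothelial scaling (-1.10 and -1.44). Ltbp1, which holds latent TGF-beta in the matrix, was at 198 to 1639 CPM in Sca-1- and 3.95 to 23.2 CPM in Sca-1+ libraries (-5.59, SE 0.81, adjusted p = 0.000404). Its endothelial-scaled value, -10.41, includes the shift of all genes by that scaling and adds no separate support. Without libraries 8 and 10 its log2 fold change was -4.48 (adjusted p = 0.00059). In the Sca-1- libraries Ltbp1 was highest in libraries 10 and 8, where the megakaryocyte sums of 115400 and 92180 CPM were the highest as well. The part of megakaryocyte RNA in the values of Ltbp1, and of megakaryocyte and stromal RNA in those of the 4 lower ligands, was not tested. Smooth muscle and pericyte sums were higher in the Sca-1+ libraries, as given above. Their part in the values of genes higher in Sca-1+, members included, was not tested either.

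**Figure D4:**
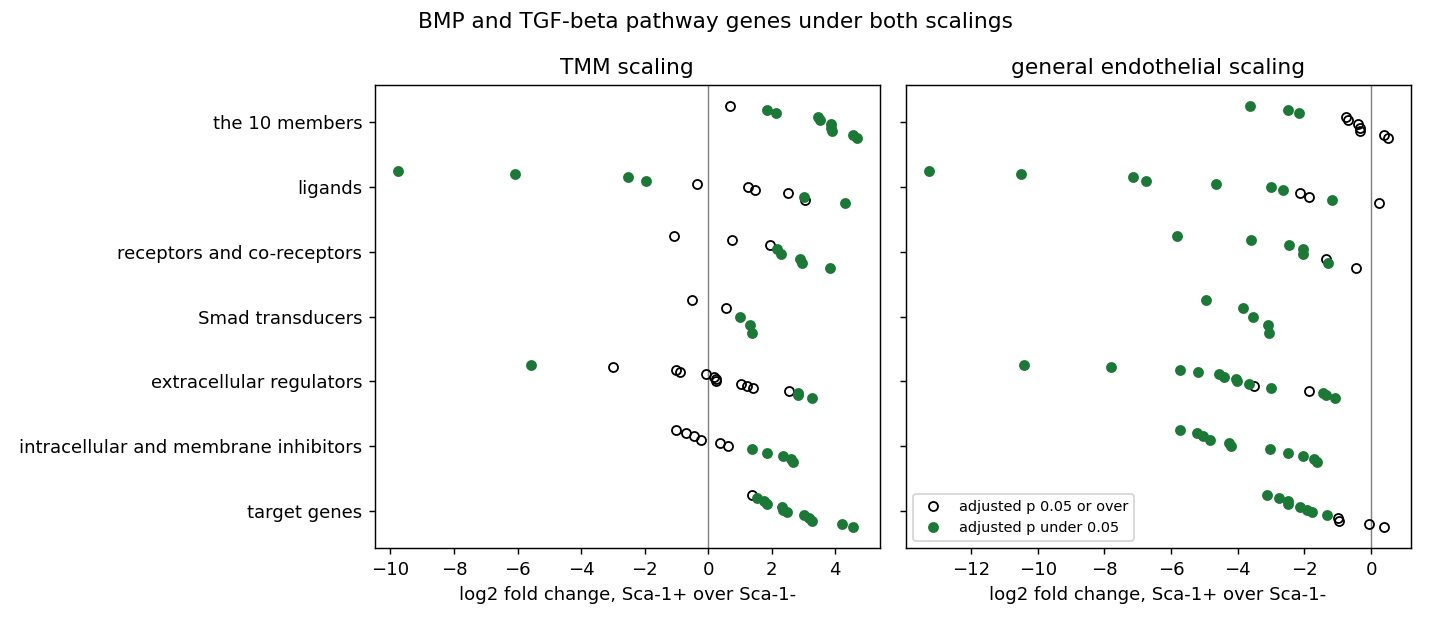
Log2 fold change of Sca-1+ over Sca-1- (x axis) for the 10 genes and for 62 other tested pathway genes by role (rows), on TMM scaling (left) and on general endothelial scaling (right); each point is a gene, filled where its adjusted p was under 0.05. On the left 9 of the 10 genes are called, all higher, and on the right 3, all lower.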

How the data were processed

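RNA of sorted BM ECs was extracted with a miRNeasy micro kit, and polyA libraries were made from 2 ng of total RNA with the SMART-Seq v4 Ultra Low Input kit. The authors deposited raw read counts per gene for all 9 libraries. STAR, featureCounts and the build mm10 are named in the submitters' processing notes. Versions, the annotation release and the use of strand in counting are not given in the sources used here.

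The 10 members and the lists of other pathway genes and marker genes were chosen with earlier results of these data known. Other pathway genes are named by a rule: per list, up to 2 in each direction with the largest log2 fold change, drawn from genes that were called, whose fractions did not overlap and whose log2 CPM averaged 1 or more.

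Counts were tested for Sca-1+ against Sca-1- on the whole table with the quasi-likelihood test of edgeR 4.0.16 in R 4.3.3. The default filter on low counts (10 counts) left 15937 of 46078 genes, libraries were scaled by TMM, and p-values were adjusted by Benjamini-Hochberg over all genes tested with a threshold of 0.05. Every member passed the filter. The labels do not say that libraries of a fraction came from separate mice, so p-values measure the spread between these libraries, which may be technical. The running numbers that open the sample titles do not overlap between fractions, so anything that goes with them cannot be told apart from the fraction. No 2 libraries of a fraction agreed within sampling noise (chi-square per degree of freedom 36.8 to 538). Log2 CPM used a prior count of 2. The scaling to general endothelial genes set the mean log2 CPM of 25 genes equal in all libraries. Coordinates and exon lengths are from GENCODE M21 (GRCm38), in which 45143 of the deposited gene IDs were found, and promoters from RefSeq (GRCm38.p6), matched by symbol and used for 7 of the 10. The script was tested on simulated counts for this comparison (15510 genes), where it called 4 of 60 genes changed 2-fold, 27 of 64 changed 4-fold and 59 of 69 changed 16-fold, and 5 unchanged genes. Alternatives were other scalings (DESeq2 1.42.0 size factors, library size, upper quartile), no filter, a robust fit, DESeq2, limma 3.58.1 voom, a replicate block, another prior count and leaving out libraries.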

Additional observations from a re-analysis of the deposited data

Results flagged for a closer look

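In 5 of 72 sets of values (a gene or ratio in 1 fraction), 1 library stood apart from the rest by Dixon's test at the 95% level, and chance flags about 1 in 20 sets. Among the members, Bmpr2 was at -0.65 log2 CPM in Sca-1- library 10, with the other 4 libraries between 1.54 and 2.10. The log2 ratio of Smad7 to Smad6 was -1.79 in Sca-1+ library 13 and -1.09 to -0.98 in the other 3. Among other pathway genes, Bmp3 stood at 0.56 log2 CPM in Sca-1+ library 7 (-3.12 to -3.06 in the other 3, each with 1 count). Rgmb was at 5.76 log2 CPM in Sca-1+ library 19 (4.854 to 5.003 in the other 3), and Id4 at 7.51 log2 CPM in Sca-1+ library 15 (7.15 to 7.19).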

How the results depend on the processing

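The count of 9 higher members stayed between 8 and 10 under the other scalings, filter, fit and tests and with libraries left out (9 to 10), except that scaling to general endothelial genes gave 0 higher and 3 lower. For other pathway genes that scaling gave 0 higher and 51 lower, in place of 29 and 5. DESeq2 called 8 of them lower, and leaving out a library gave 26 to 30 higher and 5 to 8 lower, the 8 without Sca-1- library 14 or 16. Endothelial scaling reversed the sign of the log2 fold changes of Eng (-0.34), Bmpr2 (-0.33), Tgfbr2 (-2.49), Bmp4 (-3.63), Bmp6 (-0.75), Smad6 (-0.70), Smad7 (-2.15), Id3 (-0.38), Tgfb2 (-1.18), Rgmb (-0.44), Acvr1b (-1.36), Smad5 (-3.06), Smad1 (-3.08), Htra1 (-1.10), Fstl1 (-1.44), Skil (-1.71), Tgif1 (-1.63) and Hey1 (-0.066), where it shifted the median of all genes by -4.39. Of these Eng, Bmpr2, Bmp6, Smad6, Id3, Rgmb, Acvr1b and Hey1 were not called on that scale, so only the sign of their estimate changed. Over all genes endothelial scaling gave 222 higher and 14111 lower in place of 3721 and 3416. Library size alone gave 4158 and 2431 and shifted that median by 0.36, the replicate block by 0.117 and leaving out Sca-1- library 8 by -0.106.

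With 1 library left out, the ratio difference was 2.83 to 3.07 for Bmp6 over Bmp4, -2.95 to -1.63 for Smad7 over Smad6 and 0.67 to 1.06 for Id1 over Id3. By limma voom the log2 fold change of Smad6 was 5.11.

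Consecutive library numbers do not mark a stated pairing. Deviations from the fraction means correlated at r = 0.147 (libraries 7 and 8), 0.148 (13 and 14) and 0.042 (15 and 16), and the other 17 pairs reached at most 0.065. The replicate block in these 6 libraries called 8 members higher, as did the same 6 without it, and over all genes 2265 higher and 2075 lower (2768 and 2592 without it). A block for the title number shared by 15 and 16 gave 9. Leaving out libraries 8 and 10 together, chosen after seeing the data, gave 10 higher members. Low counts limit Smad6 (0 and 11 counts in Sca-1- libraries 14 and 10) and Bmpr2 (8 counts in library 10) most, and neither library had the lowest total count.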
